A study of Mus musculus with 6 samples.

Results

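The mRNAs of the cytosolic ribosomal proteins were followed in 4T1 cells, a mouse mammary carcinoma line, with and without ectopic METTL7A1, a putative methyltransferase. The genes were taken by name from the deposited gene table: symbols that start with Rpl or Rps followed by a number and at most a short suffix, the P-stalk genes Rplp0, Rplp1 and Rplp2, and Rpsa. Symbols that carry the pseudogene mark -ps and the Rps6 kinases were left out. Of 88 such symbols, 83 were at 1 cpm or above (cpm being a count relative to the size of its library) in 3 libraries or more and are the members described here, among 13166 genes tested. The rule uses names and abundance only, but it was set with earlier results of these data known. The other 5 did not reach that level: Rps4l and Rpl10l had no count in any library, which allows up to 3 counts per library, Rpl39l and Rpl3l had at most 1 and 2 counts, and Rps12l1 had at most 6. The members comprise 31 small-subunit and 46 large-subunit genes, 3 paralogs (Rpl22l1, Rps27l and Rpl7l1), and 3 gene copies (Rps3a2, Rps3a3 and Rpl6l). The copies have 1 exon each, and the annotation names no principal transcript for them.

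Both groups were 4T1 cells grown in DMEM/F12 with serum and kept under G418 selection. The METTL7A1 group (3 libraries) had been stably transfected with full-length Mettl7a1 cDNA in a vector driven by the CMV promoter, and the mock group (3 libraries) with the empty vector. Whether each line is a clone or a pool is not given in the sources used here, and the libraries of a group are biological triplicates of 1 line, so p-values measure the spread among these triplicates and a trait of the line cannot be told apart from an effect of METTL7A1. Totals were 18386780 to 28459338 counts per library. Mock replicate 3 stood apart from the other mock libraries, with lower values of the members, and the main counts are given with and without it. Mettl7a1 itself was at 342, 385 and 422 cpm in METTL7A1 replicates 1 to 3 and at 1.64, 1.24 and 1.17 cpm in mock, as labelled. The epithelial markers Epcam, Cdh1, Krt8 and Krt18 were expressed in both groups without a called difference, while Krt14 was lower (log2 fold change -1.94) and Krt7 higher (0.50) in METTL7A1 cells. Of 6 markers of other cell types, Cd3e had no count and Ptprc, Pecam1 and Cdh5 at most 16 counts in a library, while Cd68 and Pdgfra were detected and higher in METTL7A1 cells (1.23 and 0.47).

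Each ribosome holds 1 copy of nearly every ribosomal protein, and the genes for these proteins lie scattered over the genome. Their mRNAs are short and abundant and begin with a C followed by an unbroken run of pyrimidines, the 5′ terminal oligopyrimidine (TOP) motif, through which the mTORC1 kinase and the RNA-binding protein LARP1 set how well they are translated. Growing tumour cells devote a large part of their transcription to them. Introns of many of these genes also encode small nucleolar RNAs (snoRNAs). 23 of the members contain 32 annotated snoRNA genes.

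Pyrimidine runs near the annotated start were searched for in RefSeq promoter entries (build GRCm38.p6), which 60 of 83 members had. Within 50 bases on either side of the annotated start, 48 of 60 entries (80.0%) held on the transcribed strand a run of at least 8 bases that starts with C and has only C or T, against 28.7% of 26965 other genes with an entry. On the opposite strand the shares were 21.7% and 30.9%. The run started within 30 bases of the annotated start in 33 of the 48 entries. Entries of members called lower (defined below) held the run in 19 of 23 cases and those of the other members in 29 of 37, so members of both kinds carry it. The windows of 5 of the members that moved most, and of Rpl5 as one that was not called, are shown 5′ to 3′ with the run in capitals. They lie at chr12:28635910-28635939 (minus strand, Rps7), chr10:23787181-23787210 (minus, Rps12), chr14:18270967-18270996 (minus, Rpl15), chr3:28805501-28805530 (plus, Rpl22l1), chr10:128626483-128626512 (minus, Rps26) and chr5:107900498-107900527 (plus, Rpl5).
Rps7: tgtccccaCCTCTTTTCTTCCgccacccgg
Rps12: caccgccggCCTTTTCCCCTgccgccgccg
Rpl15: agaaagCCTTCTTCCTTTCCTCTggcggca
Rpl22l1: caagcccgttCTCTTCCCacggctgcagct
Rps26: gccgccggatCCTCTTTCgagtcttggctc
Rpl5: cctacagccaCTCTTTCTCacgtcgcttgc
The run had 17 bases in Rpl15 and 8 in both Rpl22l1 and Rps26, which moved in opposite directions. Counted from the annotated start, the run began at base 23 in Rps7, 9 in Rps12, -4 in Rpl15, 4 in Rpl22l1, 5 in Rps26 and -20 in Rpl5. A match describes these letters only and is not a mapped start of transcription.

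Ribosomal protein mRNAs were on the whole slightly lower in METTL7A1 cells. Values are given as cpm scaled between libraries by the TMM method, and as log2 fold changes of METTL7A1 over mock with their standard error (SE), from edgeR's quasi-likelihood test fitted on all 13166 genes. A gene was called at a Benjamini-Hochberg adjusted p under 0.05. The median log2 fold change of the 83 members was -0.22, or 85.8% of mock, against -0.03 over all genes tested. In bulk RNA a value is relative to the other genes of its library, so fewer cells that express a gene and less of its RNA per cell cannot be told apart. It was negative for 69 members, and the interquartile range was -0.30 to -0.10. Called lower were 31 members (37.3%, where 21.0% of all genes tested were called lower) and called higher were 2, Rps26 and Rpl17 (2.41%, where 21.1% of all genes were called higher). No member passed the thresholds of the study (adjusted p under 0.01 and a log2 fold change beyond 1.5, with the base of the logarithm assumed here), which 2.48% of all genes did. No member passed them with DESeq2 or limma's voom either, whereas 48 members (57.8%, against 50.1% of all genes) had an unadjusted p under 0.05 in edgeR, and the largest change of any member was -0.69. The groups did not overlap for 26 members that were lower (31.3%, against 25.6% of all genes) and for 2 that were higher (2.41%, against 25.9%), and they overlapped for 55.

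**Figure D1:**
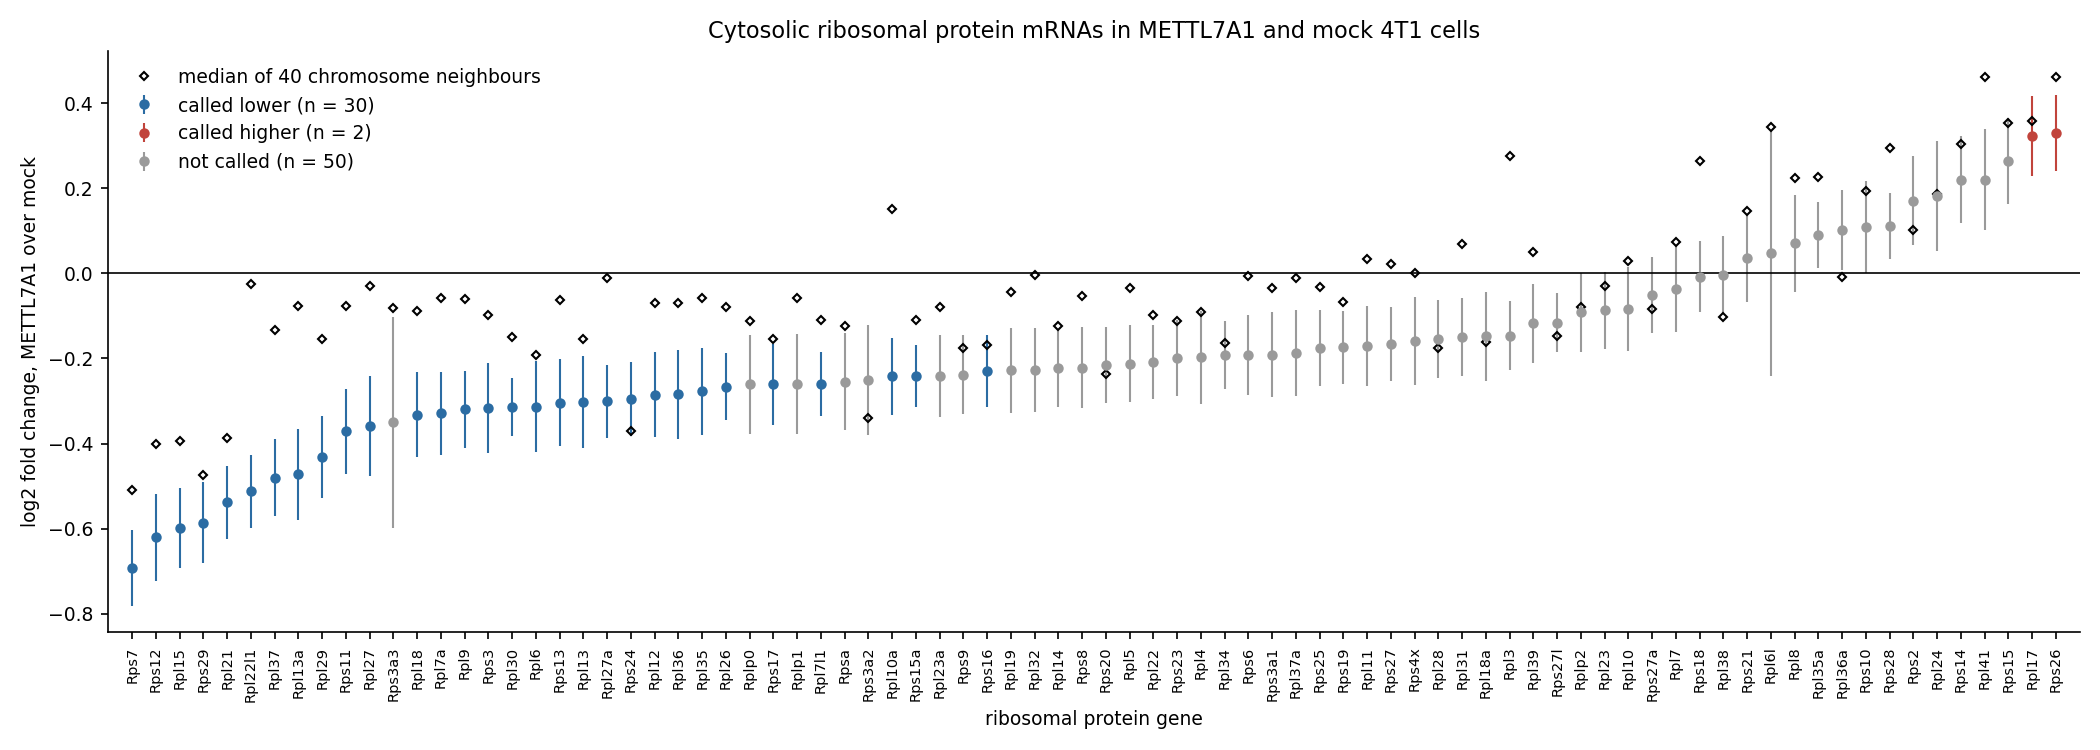
Log2 fold change (METTL7A1 over mock, y axis, ± SE) of 82 of the 83 members, sorted along the x axis; colours mark members called lower (30 of those drawn), called higher (2) or not called (50). Open diamonds give the median log2 fold change of 40 neighbouring genes on the same chromosome, which runs with the members at both ends of the order, from Rps7 (-0.69) to Rps26 (0.33).

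Both subunits took part. Of the small-subunit genes, 11 of 31 were called lower and 1 higher, with a median of -0.20, and of the large-subunit genes 18 of 46 lower and 1 higher, with a median of -0.22. Members that host snoRNAs (9 of 23 lower, median -0.22) and members that do not, the paralogs and copies left out (20 of 54 lower, median -0.21), differed little in either number. The ribosomal proteins of mitochondria, which are built into a separate ribosome, had a median of -0.20, with 22 of 76 genes (28.9%) called lower and 2 higher. The median was thus below that of all genes in both kinds of ribosomal protein genes.

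The number of calls depended on single libraries. Relative to the mean of the mock libraries, the median over the members was -0.35, -0.18 and -0.11 in METTL7A1 replicates 1 to 3 and 0.03, 0.13 and -0.16 in mock replicates 1 to 3, so mock replicate 3 lay between METTL7A1 replicates 2 and 3. In mock replicate 3 every member was below the mock mean, in mock replicate 2 none was. Without mock replicate 3, 52 members were called lower (62.7%, against 22.0% of all genes, median -0.28). Without mock replicate 1 the count was 12 (14.5%, against 14.2% of all genes), without mock replicate 2 it was 12 (14.6%, against 16.6%), and without METTL7A1 replicate 1, 2 or 3 it was 21 (25.3%, against 20.7%), 15 (18.3%, against 14.4%) and 29 (35.4%, against 17.4%). The share of members called lower was thus near that of all genes without mock replicate 1 or 2. The median stayed between -0.28 and -0.14 whichever library was left out. The members took 2.11% ± 0.19 (SD, n = 3) of all counts in METTL7A1 and 2.30% ± 0.16 in mock. All counts here include the ribosomal RNA transcript AY036118, at a mean of 2.54% in METTL7A1 and 6.35% in mock.

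The libraries also differed in remnants of ribosomal RNA, which the preparation was meant to remove. AY036118, a transcript of the ribosomal RNA repeat, took 0.502%, 2.57% and 4.53% of counts in METTL7A1 replicates 1 to 3 and 13.1%, 5.02% and 0.966% in mock. METTL7A1 replicate 1 and mock replicate 3, the libraries with the least AY036118 in their groups, had the lowest member medians in their groups. Mock replicate 1, with the most AY036118, had a lower member median than mock replicate 2, so the order did not hold throughout. With the abundance of AY036118, centred within groups, as a covariate, 52 members were called lower (62.7%, against 26.4% of all genes) and 5 higher (6.02%, against 25.1%), and the median stayed at -0.22. The covariate was chosen after the data had been seen.

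**Figure D2:**
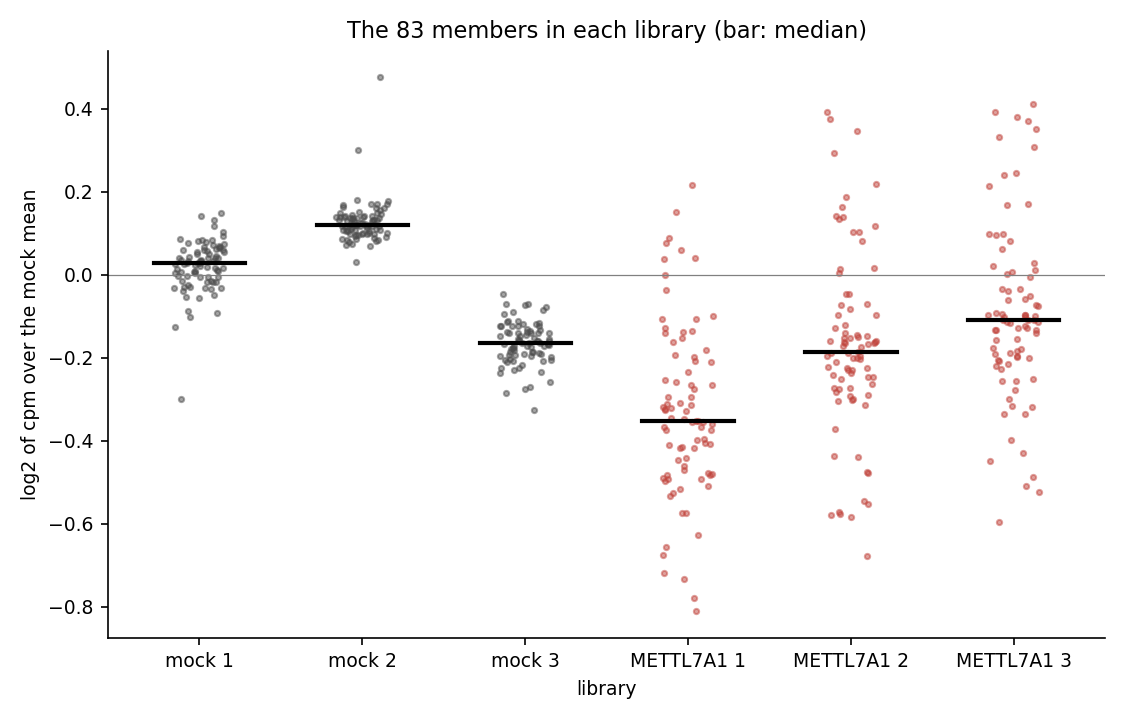
Each point is 1 of the 83 members, placed at the log2 ratio of its cpm to the mean of the mock libraries (y axis) in each of the 6 libraries (x axis); bars are medians. The points of mock replicate 3 all lie below 0 and its median (-0.16) is close to that of METTL7A1 replicate 2 (-0.18). Points are spread more widely in the METTL7A1 libraries than in mock. The mock points are measured against a mean that includes them, so the 2 spreads cannot be compared.

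The 6 members with the largest falls came from both subunits and lay on 5 chromosomes. Rps7, a small-subunit protein that also binds the p53 regulator MDM2 (chr12:28630847-28635953), was at 186, 204 and 216 cpm in METTL7A1 replicates 1 to 3 and at 333, 352 and 295 cpm in mock. The groups did not overlap, and the log2 fold change was -0.69 ± 0.09 (SE, n = 3 and 3, edgeR adjusted p = 0.000125). Rps12, another small-subunit protein (chr10:23785211-23787195), was at 409, 472 and 488 cpm against 709, 770 and 624 cpm (-0.62 ± 0.10, edgeR adjusted p = 0.000636), again without overlap. Rps12 hosts 2 snoRNA genes in its introns and was the member with the highest level per kilobase.

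Rpl15, a large-subunit protein (chr14:18267823-18271067), was at 171, 189 and 198 cpm in METTL7A1 and at 289, 309 and 248 cpm in mock (-0.60 ± 0.09, edgeR adjusted p = 0.000484). Rps29, a small zinc-binding protein of the small subunit (chr12:69157722-69159186), was at 102, 116 and 121 cpm against 178, 185 and 148 cpm (-0.59 ± 0.10, edgeR adjusted p = 0.0006). Rpl21 of the large subunit (chr5:146832890-146837032) was at 146, 154 and 165 cpm against 221, 248 and 207 cpm (-0.54 ± 0.09, edgeR adjusted p = 0.000507). In all 3 genes every METTL7A1 library was below every mock library.

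Rpl22l1, the paralog of the large-subunit protein Rpl22 (chr3:28805436-28807424), was less abundant, with 33.8, 32.7 and 36.3 cpm in METTL7A1 and 49.6, 53.1 and 43.9 cpm in mock (-0.51 ± 0.09, edgeR adjusted p = 0.000713). The groups did not overlap. These 6 were among 11 of the 31 members called lower that stayed called whichever library was left out, a count not made for all genes.

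Only 2 members were called higher. Rps26, a small-subunit protein near the mRNA exit channel (chr10:128624530-128626506), was at 290, 324 and 327 cpm in METTL7A1 and at 246, 276 and 226 cpm in mock (0.33 ± 0.09, edgeR adjusted p = 0.0122). Rpl17 of the large subunit (chr18:75000477-75003381) was at 225, 266 and 269 cpm against 195, 223 and 189 cpm (0.32 ± 0.09, edgeR adjusted p = 0.0165). Neither gene had overlapping groups, although the lowest METTL7A1 library and the highest mock library were close, at 225 and 223 cpm for Rpl17.

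**Figure D3:**
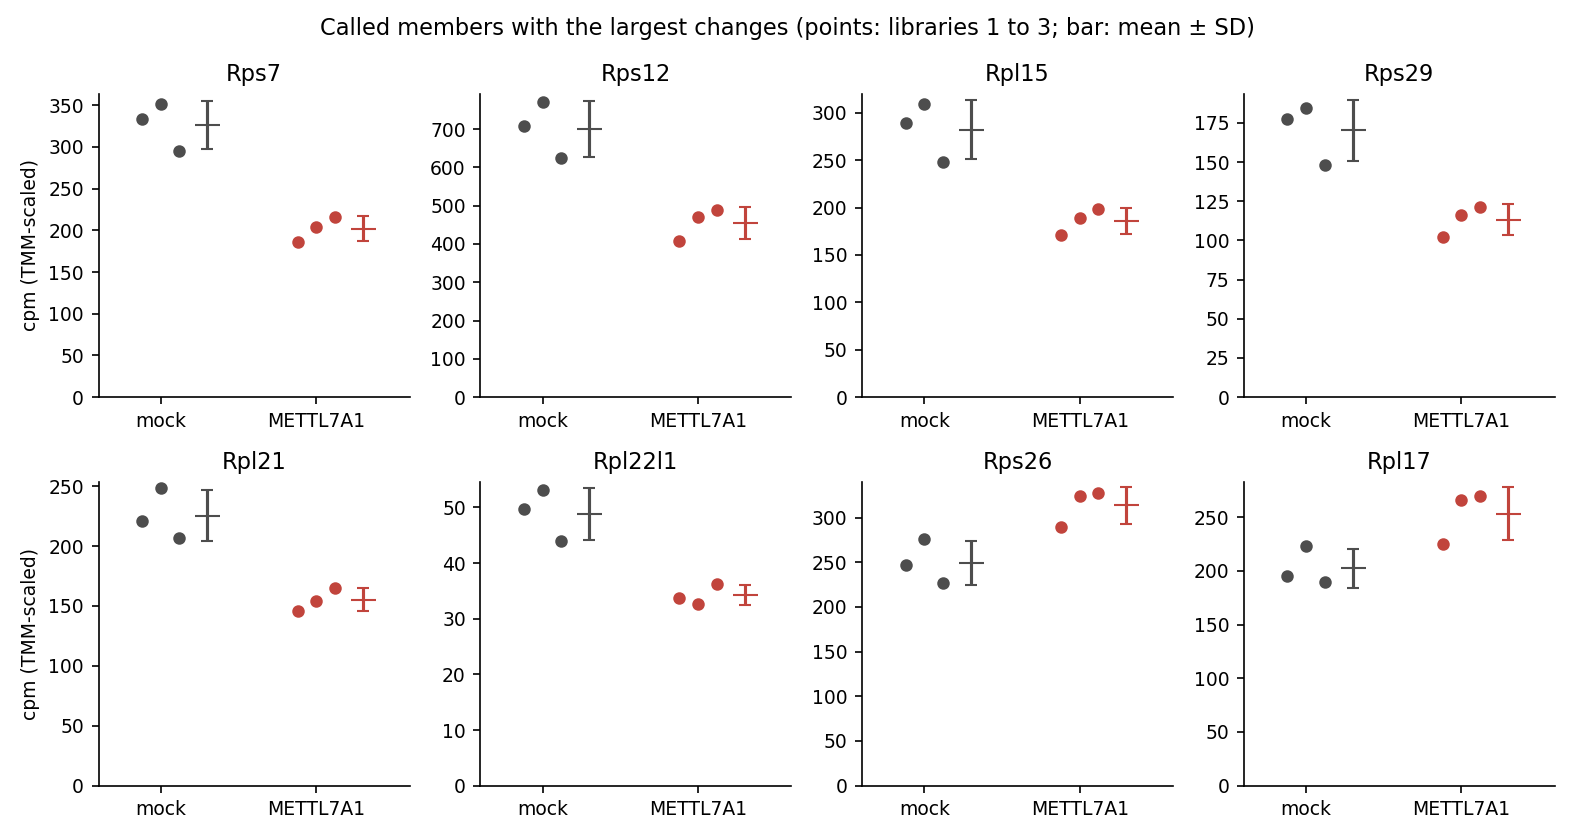
TMM-scaled cpm (y axis, from 0) of the 6 members with the largest called falls and the 2 called rises in mock (grey) and METTL7A1 (red) libraries; points are replicates 1 to 3, bars mean ± SD. The groups do not overlap in any panel, and mock replicate 3 is the lowest mock library in all 8.

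The size of a member's change followed its place in the genome. For each member, the 40 closest genes of its chromosome that were not members and had an average abundance over 2 (log2 cpm) served as neighbours, and the median of their log2 fold changes was taken. These neighbour medians ran from -0.51 around Rps7 to 0.46 around Rps26, and they correlated with the change of the member itself (Pearson r = 0.82, Spearman rho = 0.67 across 83 members, given as a description since neighbouring members share neighbours and all values share the 6 libraries). Of 19 members whose neighbours lay beyond 0.2 in either direction, 17 had the sign of their neighbours. The SD of the members' log2 fold changes was 0.21, and 0.12 once the neighbour median was subtracted.

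Both chromosome 12 members, Rps7 and Rps29, had neighbours at -0.51 and -0.47, and the neighbours of Rps12, Rpl15 and Rpl21 lay at -0.40, -0.39 and -0.39. Both chromosome 18 members were above 0 (Rpl17 at 0.32 and Rps14 at 0.22), where neighbours lay at 0.36 and 0.30. Chromosome 10 held members at both ends of the list. Rps12 fell in a region at -0.40, whereas Rps26, Rps15 (0.26) and Rpl41 (0.22) lay in regions at 0.46, 0.35 and 0.46. Rpl22l1 differed from the other large falls, since its neighbours were at -0.03.

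**Figure D4:**
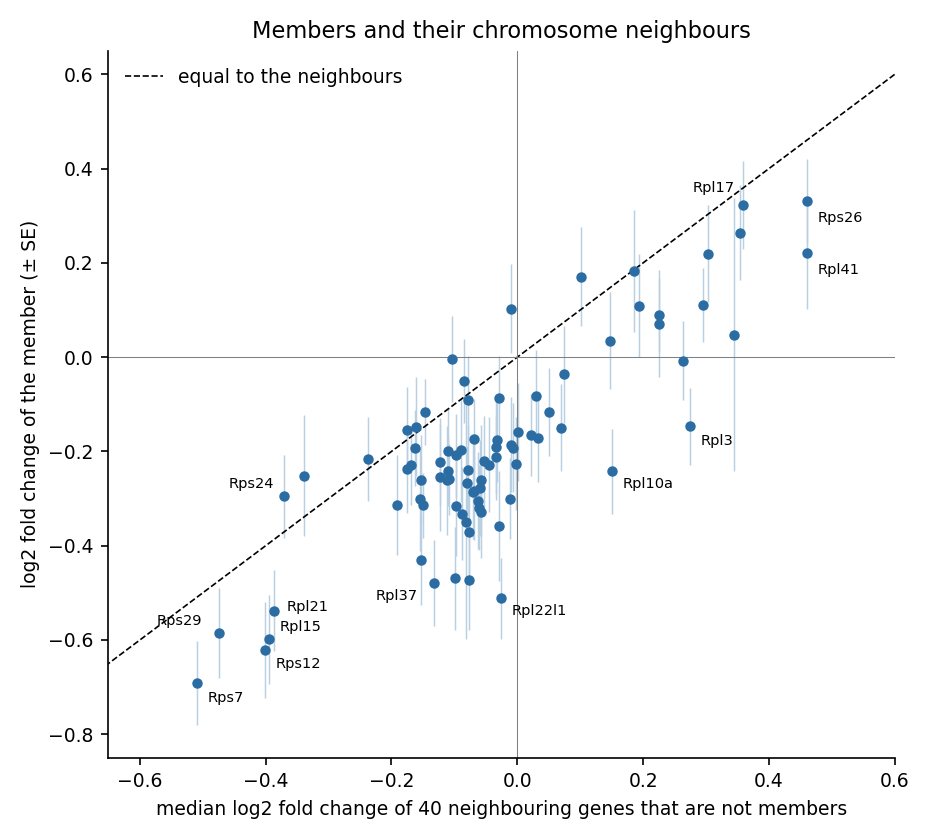
Log2 fold change of each member (y axis, ± SE) against the median log2 fold change of its 40 neighbours that are not members (x axis). Points rise along the dashed line of equal change (r = 0.82), and 73 of 83 lie below it.

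Relative to their neighbours, most members were still slightly low. The median difference was -0.16, and 73 of 83 members lay below their neighbours. With the neighbour median entered as an offset in edgeR, treated as if known without error, 11 members were called lower (13.3%), a share near the 13.5% of all genes tested that were called lower. No member was called higher with this offset, where 17.9% of all genes were, and no member had an unadjusted p under 0.05 in that direction. Rps7 came to -0.18 (adjusted p = 0.142, over all alternatives 1.7e-13 to 0.252), Rps12 to -0.22 (0.126, over all alternatives 1.5e-09 to 0.728), and the signs of Rps26 (-0.13) and Rpl17 (-0.04) turned. Of the 31 members called lower without the offset, 9 remained called, a count not made for all genes.

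Rpl22l1 kept its fall under this offset (-0.49, adjusted p = 0.00144, over all alternatives 4.3e-06 to 0.00604). It was 1 of 4 members called lower in all 20 alternative analyses, a count not made for all genes. Among the others, Rpl37, named after its values were seen, was at -0.48 ± 0.09 (SE, edgeR adjusted p = 0.00157) and Rpl13a at -0.47 ± 0.11 (edgeR adjusted p = 0.00444), with neighbours at -0.13 and -0.08. Rpl37 was at 167, 179 and 188 cpm in METTL7A1 and at 256, 270 and 218 cpm in mock. Rpl13a was at 26.1 to 33.9 cpm against 37.4 to 46.0 cpm. Neither gene had overlapping groups.

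Rpl3, which shapes the peptidyl transferase centre, and Rps18 were not called with all libraries and no offset but were called lower with the neighbour offset, and Rpl3 also with neighbour and length offsets together (-0.43). Rpl3 (chr15:80077796-80083353) was at 473, 483 and 497 cpm in METTL7A1 and at 547, 568 and 494 cpm in mock, a log2 fold change of -0.15 in a region at 0.28. Rps18 changed by -0.01 in a region at 0.26. Both were singled out after their values were seen.

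Gene length moved with the result as well. The median exon length was 886 bases for the members and 2993 bases for the other genes tested, and other genes of up to 1000 bases had a median log2 fold change of -0.13 against -0.01 for longer ones. With a length trend removed from each library, 33 members were called lower (39.8%, against 22.9% of all genes) and 10 higher (against 21.6%), with a median of -0.16. With neighbour and length offsets together, chosen after the data had been seen, 11 were called lower (13.3%, against 15.0% of all genes) and 2 higher (2.41%, against 19.0%), the median was -0.08, and Rps29 turned to 0.09.

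The P stalk, which recruits elongation factors to the large subunit, gave no call. Rplp0, its base, was at 593, 722 and 757 cpm in METTL7A1 and at 847, 911 and 726 cpm in mock (-0.26 ± 0.12, edgeR adjusted p = 0.092). Rplp1 was at 340, 411 and 448 cpm against 504, 520 and 412 cpm (-0.26 ± 0.12, edgeR adjusted p = 0.0961), and Rplp2, the partner of Rplp1, at 142, 165 and 173 cpm against 168, 187 and 156 cpm (-0.09 ± 0.09, edgeR adjusted p = 0.465). The groups overlapped in all 3.

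Rpl5 and Rpl11, which with 5S ribosomal RNA form the particle that inhibits MDM2, were also not called. Rpl5 was at 348, 372 and 407 cpm in METTL7A1 and at 434, 472 and 399 cpm in mock (-0.21 ± 0.09, edgeR adjusted p = 0.0808). Rpl11 was at 196, 219 and 234 cpm against 250, 263 and 217 cpm (-0.17 ± 0.09, edgeR adjusted p = 0.167). In both genes mock replicate 3 fell within the range of the METTL7A1 libraries.

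Rps6, the substrate of the kinases downstream of mTORC1, was at 154, 179 and 189 cpm in METTL7A1 and at 200, 216 and 181 cpm in mock (-0.19 ± 0.09, edgeR adjusted p = 0.123), with overlap. Rpl26, which is modified with UFM1 at the endoplasmic reticulum, was called lower, at 51.9, 57.0 and 58.6 cpm against 69.0, 71.1 and 61.8 cpm (-0.27 ± 0.08, edgeR adjusted p = 0.0182). Its groups did not overlap, but the call held in 3 of the 6 analyses that left out a library.

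Rpl32 and Rps2, for which the study lists a primer pair or an antibody, differed in direction without a call. Rpl32 was at 231, 266 and 284 cpm in METTL7A1 and at 308, 334 and 273 cpm in mock (-0.23 ± 0.10, edgeR adjusted p = 0.088). Rps2 was at 397, 452 and 491 cpm against 395, 442 and 353 cpm (0.17 ± 0.10, edgeR adjusted p = 0.215). The groups overlapped in both genes.

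Paralogs can replace their partner in a part of the ribosomes, so their ratio was taken within each library, where scaling between libraries cancels. Of 8 pairs considered, both genes were tested in 4. The ratio is of cpm and not per length, so only its change between groups is read. Rpl22 itself was at 116, 130 and 139 cpm in METTL7A1 and at 139, 162 and 144 cpm in mock (-0.21 ± 0.09, edgeR adjusted p = 0.0773), and the log2 ratio of Rpl22l1 to Rpl22 was -1.90 ± 0.11 (SD, n = 3) against -1.60 ± 0.11. Every METTL7A1 library was below every mock library, at the smallest p that 3 against 3 libraries allow (exact two-sided permutation test, p = 0.1, adjusted over 4 pairs 0.133).

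Rpl7l1, a nucleolar relative of Rpl7, was at 77.5, 77.8 and 83.1 cpm against 94.8, 103 and 88.0 cpm (-0.26 ± 0.07, edgeR adjusted p = 0.0164), while Rpl7 was at 580, 673 and 710 cpm against 657, 739 and 618 cpm and was not called (-0.04 ± 0.10, edgeR adjusted p = 0.803). Their log2 ratio was -3.04 ± 0.12 against -2.82 ± 0.03 without overlap (exact permutation p = 0.1, adjusted 0.133). With the neighbour offset Rpl7l1 came to -0.15 and was not called (edgeR adjusted p = 0.152), and Rpl7 came to -0.11. Neither Rps27, at 192 to 208 cpm against 206 to 253 cpm, nor Rps27l, a p53 target, at 73.2 to 76.1 cpm against 77.4 to 87.2 cpm, was called. Their ratio, -1.43 ± 0.03 against -1.47 ± 0.06, overlapped between groups (exact permutation p = 0.4, adjusted 0.4).

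Rpl36al, an almost identical partner of Rpl36a that the naming rule leaves out, showed the largest shift of the 4 pairs. Rpl36a was at 70.4, 83.2 and 89.0 cpm in METTL7A1 and at 75.9, 81.2 and 69.2 cpm in mock (0.10 ± 0.09, edgeR adjusted p = 0.415). Rpl36al was at 41.9, 49.0 and 56.4 cpm against 78.5, 82.8 and 66.8 cpm (-0.63 ± 0.11, edgeR adjusted p = 0.000991). The log2 ratio was -0.72 ± 0.06 against 0.01 ± 0.05, again at the smallest p (exact permutation p = 0.1, adjusted 0.133). Rpl36al lies on chromosome 12, and with the neighbour offset its change was -0.15.

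**Figure D5:**
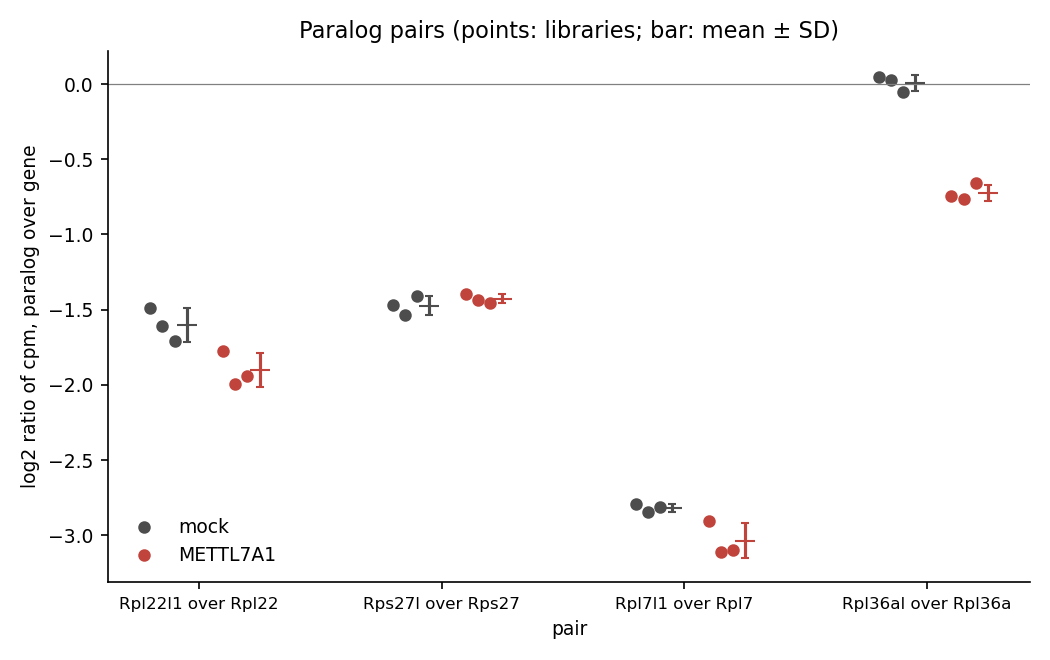
Log2 ratio of the cpm of a paralog to that of its partner gene (y axis) in each mock (grey) and METTL7A1 (red) library for the 4 pairs with both genes tested (x axis); bars are mean ± SD. The METTL7A1 points lie below mock for 3 pairs, furthest for Rpl36al over Rpl36a (-0.72 against 0.01), and overlap for Rps27l over Rps27.

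Levels between members were compared per kilobase of exon. In mock, the highest were Rps12 (1473 ± 154 cpm per kilobase, SD, n = 3), Rplp1 (967 ± 118) and Rpl4 (642 ± 68.4), and the lowest, with the 3 copies left out, Rpl24 (18.4 ± 2.76), Rpl7l1 (36.5 ± 2.81) and Rpl13a (36.9 ± 3.82), around a median of 293 cpm per kilobase. Rps12, Rplp1 and Rpl4 differed from one another by more than their spread, whereas Rpl7l1 and Rpl13a did not. In Rpl24 and Rpl13a, 71.5% and 54.9% of the exon bases overlap another annotated gene on the same strand, against 0% in Rpl7l1. Whether this overlap bears on the low ranks was not tested. Rpl24 was at 12.8, 13.7 and 15.7 cpm in METTL7A1 and at 13.8, 13.2 and 10.3 cpm in mock (0.18 ± 0.13, edgeR adjusted p = 0.285), and Rpl4, a large-subunit protein that lines the exit tunnel, at 704, 808 and 875 cpm against 925, 1003 and 809 cpm (-0.20 ± 0.11, edgeR adjusted p = 0.174). With the length of the principal transcript in place of the exon length of the table, Rpl41 entered the highest 3 and Rpl29 the lowest 3.

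Ribosomal protein genes have many processed pseudogenes, from which short reads may not be told apart. The median member shared 55.5% of its 50-base stretches with another gene, with a range from 0% to 98.6% (Rps27). Of the 80 members with a principal transcript, those that shared at least 50% had 18 of 48 called lower and a median of -0.19, and the others had 13 of 32 called lower and a median of -0.22. Rows of ribosomal protein pseudogenes held 4.57% to 4.77% of the members' counts in all 6 libraries.

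Genes that act on ribosomal proteins or share their control were counted in lists. Of 20 other mRNAs with a TOP motif, 4 were called lower and 3 higher (of all genes 21.0% and 21.1%, so the share called lower was near that of all genes), with a median of -0.12. Called genes with small p included Rpl36al, the initiation factor subunit Eif3f (-0.40), and, higher, the histone chaperone Nap1l1 (0.33) and the initiation factor Eif4b (0.28). With the neighbour offset, Nap1l1 and Eif4b came to -0.02 and -0.05. Eef1a1, the elongation factor, was not called (-0.33 ± 0.13, edgeR adjusted p = 0.0641).

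Of 22 genes of mTORC1 and LARP1 control, 3 were called lower (13.6%, against 21.0% of all genes) and 6 higher (27.3%, against 21.1%). Their median was -0.03. The list holds activators and inhibitors. The 5 with the smallest p were higher. Called lower were Mlst8 (-0.42), Rptor (-0.21) and Akt1s1, an inhibitory subunit of mTORC1 (-0.29). The inhibitors Tsc1 (0.15), Tsc2 (-0.15) and Deptor (-0.21) were not called. With the neighbour offset Mlst8 (-0.54) stayed called and Tsc2 (-0.26) was called lower, whereas Rptor (-0.06) and Akt1s1 (-0.22) were not called. Under that offset 2 of the 22 were called lower (9.09%, against 13.5% of all genes) and 5 higher (22.7%, against 17.9%). Ddit4, an inhibitor of mTORC1 induced by stress, was at 36.8, 54.1 and 47.1 cpm in METTL7A1 and at 8.97, 7.72 and 8.29 cpm in mock (2.48 ± 0.14, edgeR adjusted p = 3.8e-07). Sesn2, another stress-induced inhibitor, was at 1.35, the translation repressors Eif4ebp1 and Pdcd4 each at 1.19 and Eif4ebp2 at 0.42, the last of which came to -0.10 with the neighbour offset. Larp1 itself was not called (-0.04 ± 0.07, edgeR adjusted p = 0.718).

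Among these lists, the largest share of calls was in genes that fold, import or assemble ribosomal proteins. Of these, 13 of 19 were called lower (68.4%, against 21.0% of all genes), with a median of -0.34. The lists were chosen with earlier results of these data known, so this rank is a description only. Ltv1, a factor of small-subunit export, was at 40.6, 39.1 and 40.5 cpm in METTL7A1 and at 80.5, 84.4 and 72.3 cpm in mock (-0.98 ± 0.08, edgeR adjusted p = 3.3e-06). Heatr3, which carries Rpl5 to the nucleus (-0.66), Rpf2, which places the 5S particle (-0.68), Grwd1, a chaperone of Rpl3 (-0.58), and the importin Ipo5 (-0.61) followed, and none of the 5 had overlapping groups. With the neighbour offset 9 of 19 were called lower (47.4%, against 13.5% of all genes), and Rpf2 was at -0.18. Of 11 tested genes for UFMylation or ubiquitination of ribosomal proteins, 3 were called lower (27.3%, against 21.0% of all genes). A further 2 were called higher (18.2%, against 21.1%), and the median was -0.05. The UFM1 ligase partner Ddrgk1 (0.50) and the ribosome-collision sensor Zfp598 (0.25) were higher, and Huwe1 (-0.26) and Ufsp1 (-0.54) were among those called lower. With the neighbour offset Zfp598 (0.15), Huwe1 (-0.16) and Ufsp1 (-0.38) were not called.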

How the data were processed

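Groups and replicate numbers came from the titles in the labels. The authors trimmed reads with BBDuk, mapped them with STAR to mm10, and used featureCounts for gene assignment. The deposited values are raw counts for each gene. How strand and reads with several matches were handled is not stated. The submitters' processing notes name STAR 2.5.3a. Per the file headers the table also gives each gene's exons and exon length, used here as an annotation.

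Genes with at least 1 cpm in at least 3 libraries were tested in R 4.3.3 with edgeR 4.0.16 (TMM factors, glmQLFit, glmQLFTest, no covariate), the filter being that of the study. Adjusted p-values are over all genes tested. The SE is the log2 fold change over the square root of F. Alternatives used DESeq2 1.42.0, limma 3.58.1 (voom, cyclic loess), other scalings and filters, offsets and omitted libraries. The fits were tested on simulated data. Sequence and gene annotation came from GENCODE M21 and RefSeq (GRCm38.p6).

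Members and gene lists were chosen with earlier results of these data known. Values per library are given for the 6 largest called rises and falls, paralog pairs, the P stalk, Rpl5, Rpl11, Rps6, Rpl26, Rpl32, Rps2 and the highest and lowest 3 levels, and for at most 5 called genes per list, with others said to be named later. A few genes are not reported here by name, but remain in all counts and medians.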

Additional observations from a re-analysis of the deposited data

How the results depend on the processing

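The median log2 fold change of the members was negative in all 20 alternatives and moved by more than the spread between replicates only with neighbour and length offsets together (-0.0838). No member passed the thresholds of the study in any of them. The count called lower (31) was 19 with the replicate block (22.9%, against 17.8% of all genes). It was 11 with the neighbour offset (13.3%, against 13.5%) and with both offsets (13.3%, against 15.0%). With the AY036118 covariate it was 52 (62.7%, against 26.4%). It ran from 12 to 52 with 1 library left out, where 14.2% to 22.0% of all genes were called lower. The count called higher (2) was 5 without an abundance filter (6.02%, against 11.6% of all genes). With the length offset it was 10, where 21.6% of all genes were called higher. With cyclic loess it was 5 (6.02%, against 22.3%) and with the AY036118 covariate 5 (6.02%, against 25.1%). With the neighbour offset it was 0, where 17.9% of all genes were called higher. The count called higher ran from 0 to 6 with 1 library left out, where 14.7% to 22.5% of all genes were called higher. Signs turned for Rps26 (-0.13) and Rpl17 (-0.035) with the neighbour offset and for Rps29 (0.0904) with both offsets. The cause of these changes was not tested.

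Deviations of same-numbered libraries correlated at -0.15, 0.20 and -0.37. These few values cannot settle whether same-numbered cultures were paired, which is not stated, so the block result is given as an alternative. With 3 libraries per group and a common biological coefficient of variation of 0.091, the SE of a member (0.09 for Rps7) means that changes as small as the median of the members could often not be called.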
